A study of Mus musculus with 2 samples.

Results

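The 54 genes of DNA replication and S phase were followed through 4 sorting gates of mouse bone marrow cells that carried the Fucci cell cycle reporter. The genes were taken from a list by symbol, without regard to their values, and all 54 of 54 were found among the 53378 gene rows of the count tables. The cells came from C57BL/6 mice of 8 weeks and every gate carried the reporter, in which orange mKO2 marks G0 and G1 cells and green mAG marks cells in S, G2 and M. There were 2 libraries, 1 with the mKO2neg and mAG+ gates and 1 with the mKO2high and mKO2low gates, and each gate held 48 cells. The series title names quiescent hematopoietic stem cells, while the labels give bone marrow and the reporter colors, with no animals, cultures or surface markers. Each gate is therefore 1 sample without replicates, no test was run, and intervals given below are 95% counting intervals only.

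Replication begins in G1, when the origin recognition complex and Cdc6 load the Mcm2 to Mcm7 ring onto DNA, a step called licensing. At S phase entry Cdc7 kinase, Mcm10, Cdc45 and the GINS complex turn the loaded ring into a moving helicase. Polymerases, the Pcna clamp and its loaders, the Rpa complex and enzymes of nucleotide supply then copy the DNA, while other proteins rebuild chromatin and guard the fork. Many of these genes are known targets of the E2F transcription factors. Blood stem cells rest in G0 for most of their life, and licensing genes are known to be low in resting cells.

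Labels and counts did not match in the deposited tables, and each gene was read from the row of the gene just before it in the GENCODE M21 order of the IDs in the file. Under its own label Actb held 136 counts and in the row before it 25599, and Malat1 held 0 and 67146. Read from the row before, 53 of the 54 genes had at least 10 counts over all cells, and all had at least 1. Read from the labelled row, 23 had at least 10 counts and 23 were at 0, and from the row after it 21 had at least 10. The share of all counts that fell on protein-coding genes was 92.8% when read from the row before and 52.0% from the labelled row. Every value below holds only under this reading.

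Promoter sequences are shown because short sequences of the E2F type were more frequent around the start of these genes than around that of all genes. The choice of genes did not use this feature. RefSeq promoter windows (GRCm38.p6, 250 bases before to 50 after the start) were found for 43 of the 54 genes. Not matched were Mcm4, Prim2, Pole, Rfc2, Gins1, Gins2, Gins4, Tipin, Dscc1, Exo1 and Usp1. The E2F-type octamers TTTCGCGC, TTTGGCGC and TTTCCCGC were searched on both strands, where TTTCGCGC on 1 strand can overlap TTTGGCGC on the other. At least 1 was present in a window of 17 of the 43 genes (39.5%) and absent from the others, against 2.12% of the 27025 genes with a window of the same length. The CCAAT box was present for 62.8% of the 43 and 41.1% of all genes. Some octamers lay after the start, as in Lig1 and Clspn. These are matches of letters and not measured binding sites. The 250 bases before the start of Mcm5 and Mcm6, ring subunits with more than 1 match there, are given 5′ to 3′ on the gene's strand, with the octamers, on either strand, in capitals. Mcm5 lies at chr8:75109259-75109508 (+) and Mcm6 at chr1:128359706-128359955 (-), in the RefSeq build above.
Mcm5: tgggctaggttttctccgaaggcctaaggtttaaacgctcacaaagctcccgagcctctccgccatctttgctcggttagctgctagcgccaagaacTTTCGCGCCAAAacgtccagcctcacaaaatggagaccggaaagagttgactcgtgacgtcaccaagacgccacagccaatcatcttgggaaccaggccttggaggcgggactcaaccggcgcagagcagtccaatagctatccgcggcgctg
Mcm6: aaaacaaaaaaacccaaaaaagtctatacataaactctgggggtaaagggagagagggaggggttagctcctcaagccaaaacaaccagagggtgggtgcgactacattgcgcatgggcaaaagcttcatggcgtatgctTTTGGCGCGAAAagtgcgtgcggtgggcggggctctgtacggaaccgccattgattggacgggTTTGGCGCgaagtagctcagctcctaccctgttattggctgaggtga
In Mcm5 an octamer begins 153 bases before the start and overlaps a second on the other strand. In Mcm6 an overlapping pair begins 110 bases before the start and a further octamer 47 bases before it. The values of both genes in the 4 gates are given with the licensing genes.

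The gates differed in depth: mKO2high held 934036 counts, mKO2low 1703263, mKO2neg 1608630 and mAG+ 2791584. Median counts per cell ran from 14510 in mKO2high to 45177 in mAG+. Cells were therefore also thinned to 5000 counts each, which left out 9 mKO2high, 0 mKO2low, 5 mKO2neg and 3 mAG+ cells that were shallower. All 12 listed stem cell markers had counts in every gate, and their summed level was 3194 CPM (counts scaled to a gate total of 1000000) for mKO2high, 2503 for mKO2low, 2352 for mKO2neg and 1889 for mAG+. The single markers did not all follow the sum. Of the 12, 8 were lower in mAG+ than in mKO2high (45.7% of all genes were) and 4 higher (54.3%), among them Hlf, at 198 CPM in mKO2high and 322 in mAG+. The 20 listed G2 and mitosis genes summed to 71.7, 166, 1039 and 9480 CPM in the same order. Markers of other cell types summed to 86.3 to 136 CPM for 8 erythroid genes, 882 to 1507 for 8 granulocyte and monocyte genes, 109 to 324 for 5 megakaryocyte genes and 81.4 to 197 for 5 B lymphoid genes. The 4 T and NK genes reached at most 37.97 CPM and the 5 stromal and endothelial genes 9.31. Among defining markers Ctsg, Cd3e, Trac, Cdh5 and Lepr were at 0 in every gate. The granulocyte and monocyte sum was lowest in mAG+, the megakaryocyte sum highest in mKO2high and the B lymphoid sum highest in mAG+. Their part in the results below was not tested.

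The replication genes were highest in mAG+ and lowest in mKO2high. Their summed level was 1901 CPM for mKO2high, 2988 for mKO2low, 4020 for mKO2neg and 7002 for mAG+. Of the 54 genes, 46 had their highest gate sum in mAG+, while mKO2neg was highest for 4 and mKO2low and mKO2high for 2 each. Of the 53 with at least 10 counts over the 4 gates, 45 were highest in mAG+, against 28.9% of all 13137 such genes, and 38 were lowest in mKO2high, against 29.4%. At equal depth 40 of 47 were highest in mAG+ (27.1% of all genes) and 22 lowest in mKO2high (26.2%). In a gate sum, fewer cells with a transcript and less transcript per cell cannot be told apart. Cell by cell at equal depth, the median share of a cell's counts in these genes was 0.20% over 39 mKO2high cells, 0.20% over 48 mKO2low cells, 0.16% over 43 mKO2neg cells and 0.70% over 45 mAG+ cells. The lower quartile of mAG+ cells, 0.38%, lay above the upper quartiles of mKO2high (0.27%), mKO2low (0.285%) and mKO2neg (0.23%). The medians of mKO2high, mKO2low and mKO2neg thus lay close together, and the 5 cells with most replication gene counts held 37.6% of the mKO2high sum, 43.1% of mKO2low, 72.4% of mKO2neg and 37.0% of mAG+.

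**Figure D1:**
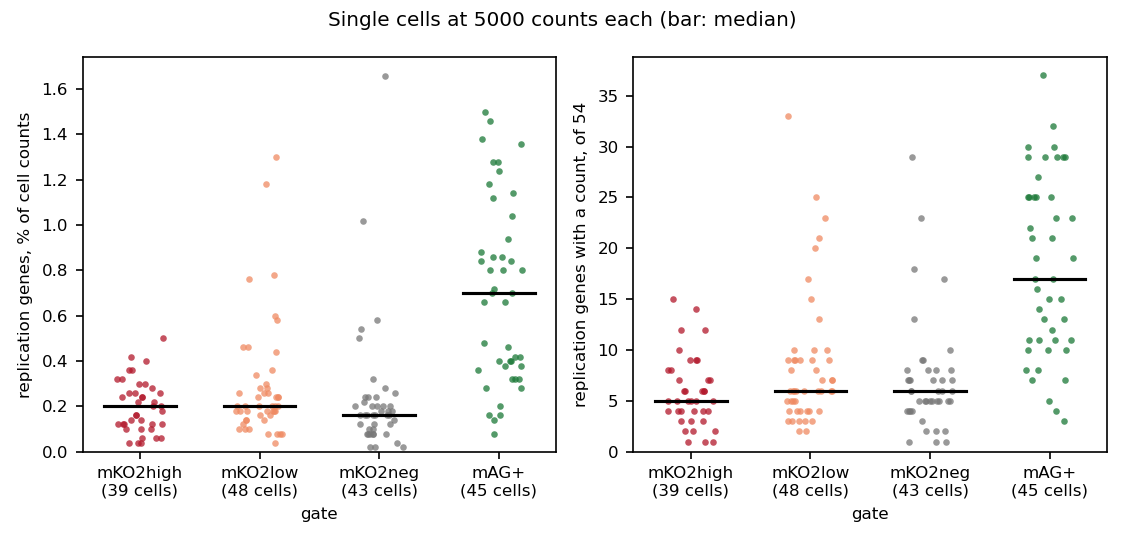
Each point is 1 cell thinned to 5000 counts. The left axis gives the share of its counts in the 54 replication genes and the right axis how many of them had a count, with the gate on the horizontal axis and the median as a bar. The mAG+ cells spread from 0.08% to 1.5%, and 1 mKO2high, 6 mKO2low and 5 mKO2neg cells reach 0.50% or more.

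A single mKO2neg cell held 54% of that gate's replication gene counts. It was the deepest mKO2neg cell, with 210516 counts, 13.1% of its gate, and 45 of the 54 genes and 13 of 20 G2 and mitosis genes had a count in it. For 24 genes it gave over 50% of the mKO2neg counts. Without it the mKO2neg sum was 2127 CPM, near mKO2high and below mKO2low. The deepest cells of mKO2high, mKO2low and mAG+ held 6.48%, 3.14% and 7.05% of their gates' replication gene counts. With the deepest cell of each gate left out, the sums were 1952 CPM for mKO2high, 3108 for mKO2low, 2127 for mKO2neg and 6969 for mAG+, and of 53 genes counted 47 were highest in mAG+ (29.3% of all genes) and 33 lowest in mKO2high (29.0%). Role sums of mKO2neg given below are therefore shown with and without this cell, and so are the values of some single genes. Where no value without it is given, the mKO2neg value includes this cell. For example, Rfc2 was at 233 CPM with it and 113 without, and Rrm1 at 62.2 and 25.75.

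At equal depth, at least 10 of the 54 genes were counted in 5 of 39 mKO2high cells (12.8%, interval 4.30 to 27.4) and in 11 of 48 mKO2low cells (22.9%, interval 12.0 to 37.3). For mKO2neg it was 6 of 43 cells (14.0%, interval 5.30 to 27.9) and for mAG+ 38 of 45 (84.4%, interval 70.5 to 93.5). These intervals cover counting error in 1 sample per gate and do not compare conditions. Before thinning the shares were 33.3%, 81.2%, 68.8% and 91.7% of 48 cells. All 45 mAG+ cells had counts in at least 3 of the 20 G2 and mitosis genes, and 7 of them had fewer than 10 replication genes. Of the 11 mKO2low cells with at least 10 replication genes, 2 had counts in at least 3 G2 and mitosis genes, as did 3 of the 6 such mKO2neg cells. In mKO2low the highest cells held 1.30%, 1.18% and 0.78% of their counts in replication genes, and in mKO2neg 1.66%, 1.02% and 0.58%. No mKO2high cell exceeded 0.50%.

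**Figure D2:**
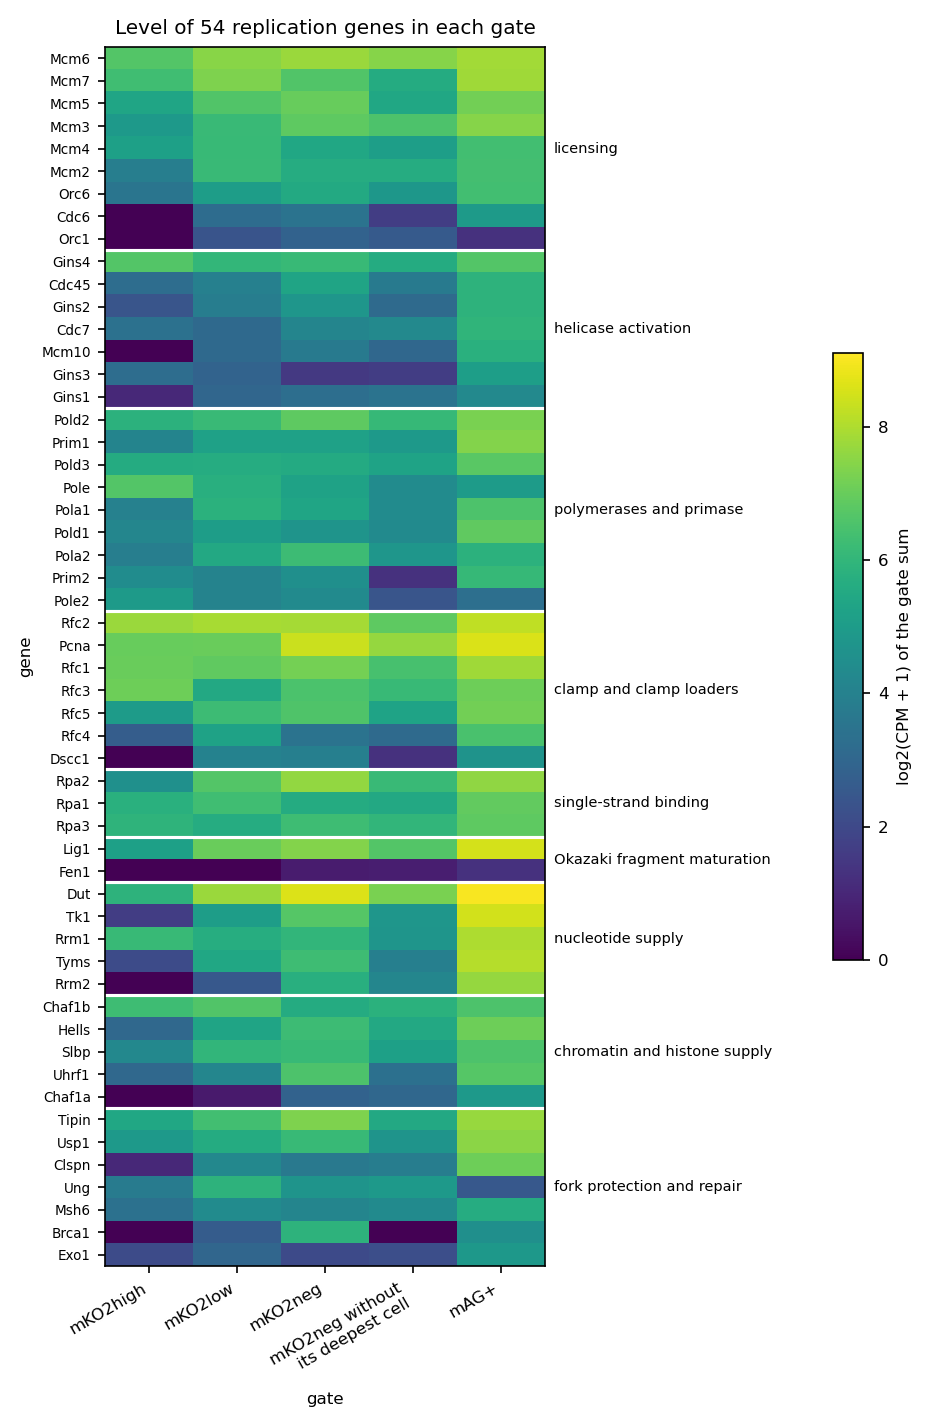
Rows are the 54 genes grouped by role, columns are the gate sums, and color is log2(CPM + 1). The column of mKO2neg without its deepest cell is darker than the full mKO2neg column in most rows, and mAG+ is the brightest column in most.

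Licensing genes were higher in mKO2low than in mKO2high and highest in mAG+. The 9 licensing genes summed to 306 CPM for mKO2high, 692 for mKO2low, 702 for mKO2neg (473 without the deepest cell) and 1044 for mAG+. Mcm6 had 99.6, 177, 213 and 228 CPM in that order of gates, with 22, 34, 28 and 37 of 48 cells holding a count. Mcm7 had 78.2, 162, 97.6 and 224 CPM. Mcm5 had 39.6, 97.5, 125 and 143 CPM, and Mcm3 had 28.9, 70.5, 114 and 175 CPM. All 4 ring subunits were lowest in mKO2high and highest in mAG+. Without the deepest mKO2neg cell, Mcm6 was at 174 CPM, Mcm7 at 47.2, Mcm5 at 41.5 and Mcm3 at 94.4 in that gate. Mcm2 and Mcm4 had 13.9 and 35.3 CPM in mKO2high and 70.5 and 69.9 CPM in mKO2low. Orc6 had 10.7 CPM in mKO2high and 80.6 in mAG+. The loader Cdc6 had no count in mKO2high, under a floor of 3.21 CPM (3 counts over the gate), and 29.7 CPM in mAG+. Orc1 had 21 counts over all gates and was too thinly counted for an order.

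With all cells, helicase activation genes were highest in mAG+. The 7 genes summed to 132 CPM for mKO2high, 120 for mKO2low, 174 for mKO2neg (106 without the deepest cell) and 383 for mAG+. The GINS subunit Gins4 had 99.6, 63.4, 69.0 and 101 CPM in the 4 gates, nearly as much in mKO2high as in mAG+. Without the deepest cells Gins4 was highest in mKO2high, at 109 CPM against 88.6 in mAG+. At equal depth it had 97.4 CPM in mKO2high and 115.6 in mAG+. Cdc45 had 8.57, 14.7, 38.5 and 58.0 CPM, and mKO2neg without its deepest cell was at 12.2 CPM. The S phase kinase Cdc7 had 9.64, 7.63, 16.8 and 60.9 CPM. Mcm10 had no count in mKO2high and 53.7 CPM in mAG+, where 21 of 48 cells held a count, against 4 in mKO2low and 4 in mKO2neg. At equal depth 8 mAG+ cells held a count of Mcm10, against 1 in mKO2low and 1 in mKO2neg. Gins2 had 4.28 CPM in mKO2high and 57.3 in mAG+. Of the exonic length of Gins2, 67.3% also lies in exons of Gse1, and the strand setting of the counting is not given in the sources used here. Gins3 and Gins1 had 33.7 and 18.6 CPM in mAG+ and at most 8.70 CPM elsewhere.

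Most polymerase and primase genes were highest in mAG+, and Pole, the catalytic subunit of polymerase epsilon, was not. The 9 genes summed to 316, 373, 415 (227 without the deepest cell) and 802 CPM from mKO2high to mAG+. Prim1, the primase catalytic subunit, had 16.1, 36.4, 36.1 and 169 CPM, with counts in 5, 10, 10 and 39 cells. Pold2 had 56.7, 71.0, 114 and 152 CPM, and Pold3 had 47.1, 48.7, 46.0 and 108 CPM. Both are accessory subunits of polymerase delta, and both were highest in mAG+. Pole, read from the row labelled Pxmp2, had 99.6 CPM for mKO2high, 52.8 for mKO2low, 37.3 for mKO2neg and 30.8 for mAG+, with counts in 10, 11, 7 and 13 cells. Pole2, its partner subunit, had 29.98, 15.9, 19.3 and 8.96 CPM from 111 counts in all. Pole and Pole2 were the 2 genes highest in mKO2high with all cells. Whether the displacement holds at each single row was not tested. Pola2 was highest in mKO2neg, at 75.2 CPM, and had 26.5 CPM there without the deepest cell, against its 56.2 CPM in mAG+.

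The clamp and its loaders had the highest summed level of all roles in mKO2high and the smallest summed ratio of mAG+ to mKO2high. Their 7 genes summed to 638, 656, 916 (520 without the deepest cell) and 1296 CPM. Pcna had 126, 129, 327 and 381 CPM from mKO2high to mAG+, and 204 CPM in mKO2neg without its deepest cell. The loader subunits Rfc2 and Rfc1 had counts in many cells of every gate, with Rfc2 at 211, 239, 233 and 301 CPM and Rfc1 at 130, 118, 144 and 224 CPM. Rfc3 had 135 CPM in mKO2high and 136 CPM in mAG+, with 44.0 CPM in mKO2low and 90.8 in mKO2neg. A single cell held 28.6% of its mKO2high counts, and at equal depth it had 92.3 CPM in mKO2high and 160.0 in mAG+. Rfc4 differed from them, at 5.35 CPM for mKO2high, 37.0 for mKO2low, 9.95 for mKO2neg and 88.8 for mAG+. The single-strand binding genes Rpa2, Rpa1 and Rpa3 had 193, 121 and 114 CPM in mAG+, against 22.5, 53.5 and 59.95 in mKO2high. Rpa2 had 196 CPM in mKO2neg, and 71.5 CPM without the deepest cell of that gate. Lig1, the ligase that seals Okazaki fragments, had 35.3, 127, 169 (101 without the deepest cell) and 365 CPM. Fen1, the flap nuclease, had 5 counts in all, and 84.2% of its exonic length is shared with Gm10143 and Tmem258, so its level could not be read.

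Nucleotide supply genes were highest in mAG+. Their 5 genes summed to 132 CPM for mKO2high, 339 for mKO2low, 689 for mKO2neg (238 without the deepest cell) and 1596 for mAG+. Dut, which removes dUTP, had 57.8, 210, 394 and 517 CPM. Thymidine kinase Tk1 had 2.14, 32.3, 104 and 354 CPM, with counts in 2, 7, 14 and 41 of 48 cells. At equal depth Tk1 was counted in 1 of 39, 3 of 48, 3 of 43 and 30 of 45 cells. Thymidylate synthase Tyms had 3.21, 41.7, 76.5 and 273 CPM, with counts in 3, 12, 10 and 35 cells. In mKO2high Tk1 and Tyms had 2 and 3 counts in all, and in mAG+ most cells had a count. Without the deepest mKO2neg cell Tk1 was at 26.5 CPM and Tyms at 14.3 in that gate, and Dut at 154.5. The ribonucleotide reductase subunit Rrm1 had 68.5, 50.5, 62.2 and 249 CPM. Rrm2, the subunit that limits the enzyme in S phase, had no count in mKO2high, 4.70 CPM in mKO2low, 52.8 CPM in mKO2neg and 204 CPM in mAG+. The deepest mKO2neg cell gave 61 of the 85 Rrm2 counts of that gate, and 17.2 CPM were left without it. The 2 reductase subunits thus differed in mKO2high, where Rrm1 had counts in 18 cells and Rrm2 in none, where a floor of 3 cells allows a share of up to 6.25% of cells with a count.

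Chromatin genes were highest in mAG+ except Chaf1b. The 5 genes summed to 109, 217, 291 (150.2 without the deepest cell) and 455 CPM from mKO2high to mAG+. Hells had 7.49, 38.8, 74.0 and 135 CPM, and Slbp, which binds histone mRNA, had 18.2, 62.8, 69.6 and 93.1 CPM. Uhrf1, which keeps DNA methylation through replication, had 7.49, 17.0, 93.3 and 104 CPM, but 9.30 CPM in mKO2neg without its deepest cell. Chaf1b, a histone chaperone subunit, had 76.0, 98.1, 47.9 and 93.5 CPM, and at equal depth it too was highest in mAG+, at 133.3 CPM. Chaf1a had 93 counts in all, of which 82 were in mAG+, and 52.5% of its exonic length is shared with Ubxn6.

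By gate sum with all cells, fork protection genes were highest in mAG+ except Ung and Brca1, and the Brca1 exception rested on 1 mKO2neg cell. The checkpoint adaptor Clspn had 1.07, 18.2, 11.8 and 137 CPM, with counts in 1, 8, 5 and 31 cells. Tipin, of the fork protection complex, had 41.8, 79.9, 161 (43.6 without the deepest cell) and 209 CPM. Usp1, a deubiquitinase of DNA repair, had 28.9, 47.6, 68.4 and 182 CPM. These 3 were highest in mAG+. Ung, which removes uracil from DNA, had 12.9, 57.5, 25.5 and 4.66 CPM, with counts in 2, 14, 3 and 2 cells. It was highest in mKO2low. The deepest mKO2high cell gave 11 of the 12 Ung counts of that gate, and without the deepest cells mKO2high was at 1.18 CPM and mAG+ at 4.99. Brca1 had 58.4 CPM in mKO2neg from a single cell and 22.2 CPM in 22 mAG+ cells. Msh6 and Exo1, of mismatch repair, had 48.4 and 27.9 CPM in mAG+ and at most 19.96 and 7.05 CPM elsewhere.

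**Figure D3:**
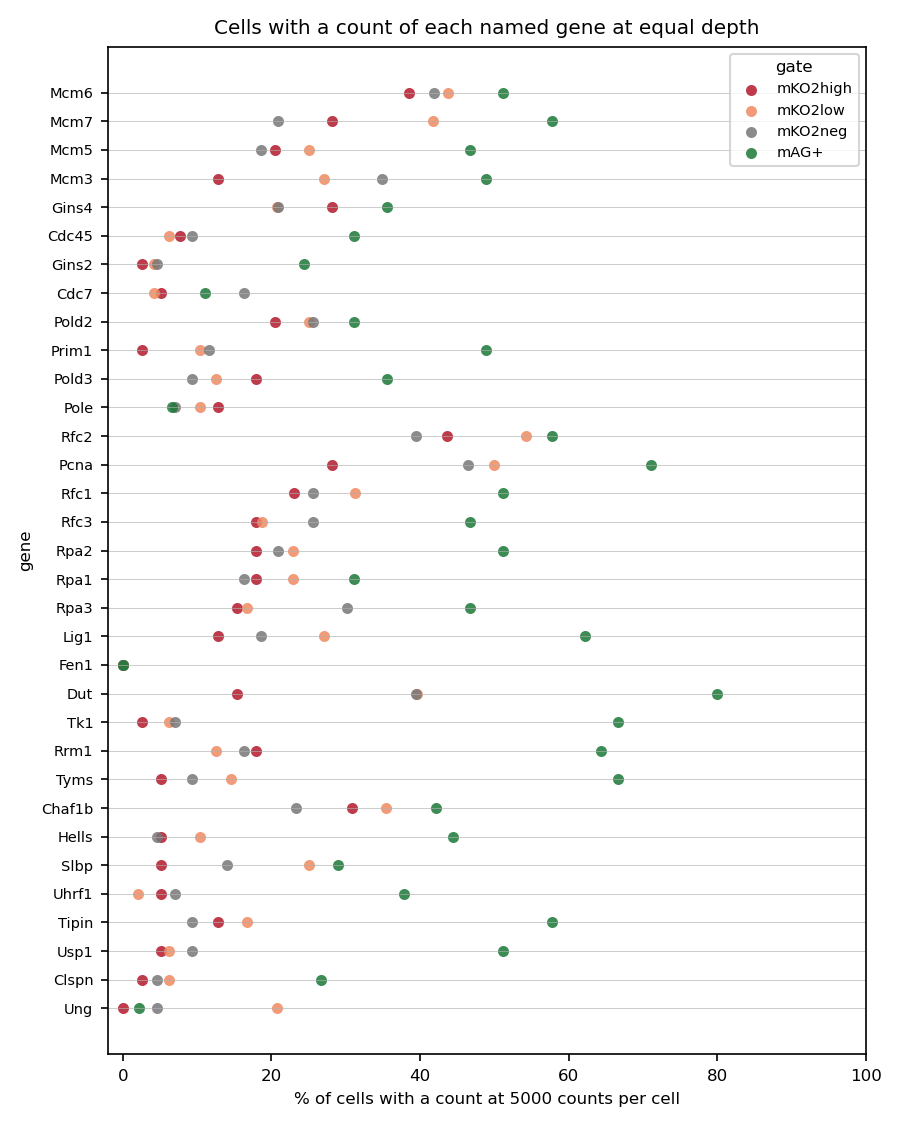
Points give the percent of cells of each gate that had a count of a gene after thinning to 5000 counts, for up to 4 genes per role. Dut reached 80.0% of mAG+ cells, Pcna 71.1%, and Tk1 and Tyms 66.7%, while Cdc7, Pole and Ung were not highest in mAG+ and Fen1 had no count in any thinned cell.

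Within the library of mKO2 gates, mKO2low was compared with mKO2high, which asks how far replication genes differ between levels of the G0 and G1 reporter. Of 49 replication genes with at least 10 counts over both gates, 39 were higher in mKO2low (52.2% of all genes were) and 10 were lower (47.8%). Their median log2 ratio was 1.04, and that of all 10901 genes counted was 0.05. In mKO2low 25 were at least 2-fold higher, against 19.6% of all genes, and 1 was at least 2-fold lower, against 15.0%. At equal depth the median was 0.57 over 32 genes, 23 of which were higher. Of the 32, 10 were at least 2-fold higher (10.1% of all genes) and 0 lower (9.93%). Cell by cell at that depth, the median share of counts in the 54 genes was 0.20% in both gates. By role, all 8 licensing genes counted were higher and had intervals above 0, and their sum had a log2 ratio of 1.18 (0.99 to 1.37). At equal depth this ratio was 1.07 (0.65 to 1.498), and without the deepest cells 1.19 (1.00 to 1.39). The deepest mKO2low cell held 0.137% of its counts in replication genes, so leaving it out kept the mKO2low cells richest in them. The sums of helicase activation genes (-0.13, -0.46 to 0.20) and of the clamp and its loaders (0.04, -0.10 to 0.19) had intervals that held 0. Gins4 alone gave 93 of the 123 helicase activation counts in mKO2high and 108 of 205 in mKO2low. By gene, 4 of the 7 helicase activation genes were higher and 3 lower, with a median of 0.73, and 3 were at least 2-fold higher and 0 lower. Of the 7 clamp and loader genes, 3 were at least 2-fold higher and 1 lower. Nucleotide supply genes were at 1.36 (1.08 to 1.66) and at 1.25 (0.56 to 1.98) at equal depth. The largest ratios were those of Dscc1 and Cdc6, which had no count in mKO2high and were at least 4.75-fold and 2.56-fold higher when mKO2high is set to the floor, which leaves out counting error in mKO2low, and of Tk1, at 3.51 (1.99 to 6.996). The lowest were Rfc3 at -1.60 (-2.05 to -1.19), Pole at -0.90 (-1.35 to -0.48) and Pole2 at -0.89 (-1.74 to -0.10). With the largest cell of each gene left out, Rfc3 was at -1.41, Pole at -0.52 and Pole2 at 0.02.

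In the other library, mAG+ was compared with mKO2neg, the gate without the orange reporter. Of 53 replication genes counted, 46 were higher in mAG+ (52.8% of all genes) and 7 were lower (47.2%). The median log2 ratio was 0.87 for them and 0.06 for all 12115 genes. At least 2-fold higher were 24, against 21.2% of all genes, and 4 were at least 2-fold lower, against 14.6%. With the deepest cells left out the median was 1.77, 39 of 53 were at least 2-fold higher (21.8% of all genes) and 2 at least 2-fold lower (14.9%). At equal depth 33 of 42 were at least 2-fold higher (13.5%) and 0 lower (11.8%). The sum of all 54 genes had a log2 ratio of 0.80 (0.76 to 0.84), which was 1.71 (1.66 to 1.77) without the deepest cells and 1.58 (1.43 to 1.73) at equal depth. Nucleotide supply had the largest of the role sums in these alternatives, at 2.69 (2.53 to 2.86) without the deepest cells and 2.23 (1.86 to 2.61) at equal depth. Licensing was at 0.57 (0.47 to 0.67) with all cells and 1.16 (1.04 to 1.29) without the deepest cells. Gins3 (3.88, 2.58 to 6.48), Clspn (3.49, 2.87 to 4.28) and Rfc4 (3.10, 2.43 to 3.99) had the largest ratios. The lowest were Ung at -2.34 (-3.48 to -1.52), Orc1 at -1.82 (-4.24 to -0.32) and Brca1 at -1.38 (-1.88 to -0.92). Without the deepest cells Brca1 was at 5.60, because all of its 94 mKO2neg counts were in the deepest cell.

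**Figure D4:**
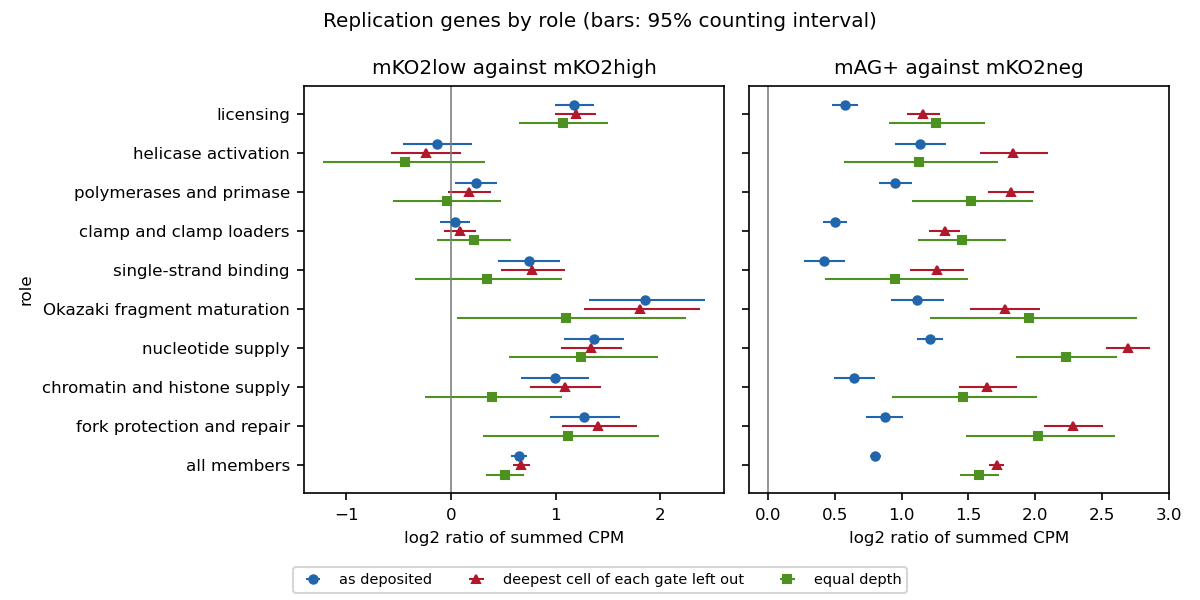
The horizontal axes give the log2 ratio of summed CPM by role for the comparisons within a library, with 95% counting intervals as bars. In mKO2low against mKO2high the licensing sum lies near 1 in each setting while the helicase activation sum, of which Gins4 is the largest part, spans 0. In mAG+ against mKO2neg the values move to the right when the deepest cells are left out.

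A further pair of comparisons ran between libraries, where gate cannot be told apart from library, and they share gates with those above. In mKO2neg against mKO2low, 35 of 53 replication genes were higher in mKO2neg (50.5% of all genes). Their median log2 ratio of 0.36 compares with 0.01 for all 11375 genes. At least 2-fold higher were 10, where 15.3% of all genes were, and 5 were at least 2-fold lower, where 16.7% were. The direction rested on 1 cell. Without the deepest cells 11 of 52 genes were higher, the median was -0.68 and the summed ratio -0.55 (-0.61 to -0.48), with 3 genes at least 2-fold higher (15.1% of all genes) and 16 lower (16.1%). At equal depth the summed ratio was -0.30 (-0.47 to -0.14), with 1 of 35 genes at least 2-fold higher (10.1%) and 8 lower (9.43%). Licensing genes were then lower in mKO2neg, at -0.62 (-0.76 to -0.48) without the deepest cells and -0.77 (-1.15 to -0.39) at equal depth. Leaving out the deepest cells removed the mKO2neg cell richest in replication genes. It kept the richest mKO2low cells, at 1.30% and 1.18% of their counts at equal depth. With all cells the largest ratios were Rrm2 at 3.33 (2.45 to 4.75), Brca1 at 3.33 (2.48 to 4.64) and Chaf1a at 2.52 (0.59 to 8.84). The Brca1 counts came from 1 cell in each gate, 94 counts in mKO2neg and 9 in mKO2low. Without the deepest cells mKO2neg held none of them. Chaf1a had 10 counts in mKO2neg and 1 in mKO2low. The lowest ratios were Rfc4 at -1.83 (-2.79 to -1.09), Gins3 at -1.52 (-4.27 to 0.13) and Ung at -1.16 (-1.74 to -0.63).

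Set against mKO2high, mAG+ was higher for 49 of 52 replication genes (54.3% of all genes) and lower for 3 (45.7%). The median log2 ratio was 2.55, and 0.12 for all 11849 genes. At least 2-fold higher were 43, against 26.2% of all genes, and 3 were at least 2-fold lower, against 17.1%. Without the deepest cells 44 were at least 2-fold higher (26.3%) and 2 lower (16.7%). At equal depth 32 of 44 were at least 2-fold higher (15.8%) and 1 lower (14.0%). Rrm2 and Mcm10 had no count in mKO2high and were at least 63.4-fold and 16.7-fold higher at the floor. Tk1 had a log2 ratio of 7.05 (5.51 to 10.4), which was 5.19 at equal depth. Tyms was at 6.19 (4.86 to 8.69) and Clspn at 6.42 (4.51 to 12.3). The 3 genes lower in mAG+ were Pole2 at -1.69 (-2.58 to -0.91), Pole at -1.68 (-2.13 to -1.25) and Ung at -1.37 (-2.71 to -0.20), and Ung was at 1.67 without the deepest cells. The summed ratio by role ran from 1.02 (0.90 to 1.15) for the clamp and its loaders to 3.599 (3.34 to 3.87) for nucleotide supply.

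Another 43 replication genes outside the list, such as the remaining origin recognition subunits, small polymerase subunits and checkpoint kinases, were also more often higher than lower. In mAG+ against mKO2neg 28 of 41 counted were higher in mAG+, 20 of them at least 2-fold, and 3 were at least 2-fold lower, with a median log2 ratio of 0.83. Over all genes the shares were 52.8%, 21.2% and 14.6%. In mKO2low against mKO2high 29 of 39 were higher, 11 of them at least 2-fold, and 3 were at least 2-fold lower, with a median of 0.32. Over all genes the shares were 52.2%, 19.6% and 15.0%. Among the 4 with the highest levels, Top1, a topoisomerase, had 311, 389, 358 and 345 CPM from mKO2high to mAG+, and Pole4 had 177, 211, 215 and 185 CPM. Neither was highest in mAG+. Rnaseh2c, an RNase H subunit, had 91.0, 130, 121 and 305 CPM, and Dnmt1, the maintenance DNA methyltransferase, had 79.2, 105, 84.5 and 290 CPM. Those 2 were highest in mAG+.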

How the data were processed

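Libraries of sorted single bone marrow cells followed a Smart-seq2 variant with enrichment of transcript 3' ends, per the labels' protocols. The deposited values are counts, whole numbers for each gene row and cell that the authors left unnormalized. Per the submitters' processing notes, the tools were HISAT2, HTSeq 0.11.3 and Seurat and the build was mm10, with no role stated. Annotation, filters, strand setting and any molecular identifiers were not given in the sources used here. Library and gate of each cell came from the deposited cell table.

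Rows were matched by gene ID to GENCODE M21 (GRCm38). Of 53378 rows, 105 were not matched, and they held 0.222% of counts. Each gene was read from the row of the gene before it in that order. Gate sums of counts were divided by the gate total to give CPM. Log2 ratios used a prior count of 1 and genes with at least 10 counts over both gates. Intervals are exact conditional binomial for ratios and Clopper-Pearson for shares of cells, at 95%. A share of 0 is given with a floor of 3 cells. Reads without known molecular identifiers are not independent molecules, so intervals cover counting error only. A median's interval is the median of its genes' interval limits. Cells are not replicates and no test was run. Doublets were not called. Computation used Python 3.11.15, numpy 2.4.6, pandas 2.3.3 and scipy 1.17.1, and ratios and intervals were tested on simulated data. Alternatives were edgeR 4.0.16 TMM factors, DESeq2 1.42.0 size factors, equal weight for each cell with at least 1000 counts, no filter on low counts, thinning to 5000 counts, a filter on cells (1000 or more gene rows, below 20% mitochondrial counts), the largest cell of each gene or the deepest cell of each gate left out, and the labelled row. In each role up to 4 genes with the highest mean CPM were named, with the 3 largest ratios in each direction of a comparison. Other genes were summarised or named after their values were seen. The genes, lists and alternatives were chosen with earlier results of these data known.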

Additional observations from a re-analysis of the deposited data

How the results depend on the processing

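No paired analysis was possible because each gate is 1 sample. Comparisons are written in the order mKO2low against mKO2high, mAG+ against mKO2neg, mKO2neg against mKO2low and mAG+ against mKO2high. TMM and DESeq2 factors moved no summed log2 ratio beyond its interval. They moved no median beyond the median of its genes' interval limits, which does not measure the spread of the median. The TMM factors ran from 0.99 to 1.01 and could move little. Read from the labelled row, the medians were 0.27, -0.34, 0.14 and 0.11, the summed ratios 0.12, -0.22, 0.014 and -0.083, and the shares of cells with at least 10 genes 0% (a floor of 3 cells allows up to 6.25%), 4.17%, 4.17% and 25% in mKO2high, mKO2low, mKO2neg and mAG+. Fewer genes had 10 counts there. At equal depth the summed ratios were 0.51, 1.58, -0.30 and 1.79. The medians were 0.57, 1.43, -0.36 and 1.65, over 32, 42, 35 and 44 genes. The shares at equal depth were 12.8%, 22.9% and 14.0% in mKO2high, mKO2low and mKO2neg, and with the filter on cells the mAG+ share was 100%. For mAG+ against mKO2neg, the median and summed ratio were 1.61 and 1.53 with equal weight for each cell, 1.85 and 1.75 with the largest cell of each gene left out, and 1.77 and 1.71 with the deepest cells left out. For mKO2neg against mKO2low they were -0.21 and -0.25, -0.60 and -0.43, and -0.68 and -0.55. With the largest cell of each gene left out, the summed ratios of mKO2low against mKO2high and mAG+ against mKO2high were 0.78 and 2.10, where the median over all genes also moved to 0.23 and 0.37. The direction of mKO2neg against mKO2low thus depends on its deepest cell. The causes of other changes were not tested.

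Of 1161 alternative log2 ratios of single named genes, 102 changed sign, 68 of them where the reported interval left out 0. The 24 whose reported ratio was also at least 2-fold in either direction are given here, and Mcm5 in mKO2neg against mKO2low, at 0.36 with all cells, is added (-0.67 with equal weight, -0.74 at equal depth, -1.11 without the largest cells and -1.26 without the deepest cells). In mKO2low against mKO2high, Prim1 was at -0.045 in its labelled row and Gins2 at -0.18 with equal weight. In mAG+ against mKO2neg, Prim1, Pold3 and Gins2 were at -0.27, -0.14 and -4.12 in the labelled row, Cdc7 at -0.25 at equal depth, and Brca1 at 1.37 with equal weight, 5.39 without the largest cell of each gene and 5.60 without the deepest cells. In mKO2neg against mKO2low, Pcna was at -0.038 at equal depth and -2.67 in its labelled row, Cdc45 at -0.36 without the deepest cells, and Tk1 at -0.055 at equal depth and -0.38 without the deepest cells. Uhrf1 was at -0.51 without the largest cells, -0.93 without the deepest cells and -0.48 in its labelled row, and Tipin at -0.38 with equal weight, -0.80 without the largest cells and -0.96 without the deepest cells. In mAG+ against mKO2high, Mcm6, Prim1 and Uhrf1 were at -0.083, -0.30 and -0.62 in the labelled row and Ung at 1.67 without the deepest cells.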
